A study of Mus musculus with 16 samples.

Results

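Of the 6689 chromatin loops listed on chromosomes 1 to 19 of the newborn mouse cochlea, 606 began and ended inside the body of a single protein-coding gene. A loop is a pair of 10 kb stretches of genome (bins), called anchors, that touched each other more often than their surroundings. A loop was taken as lying inside a gene when both anchor bins overlapped the same protein-coding gene record, from its start to its end, in GENCODE vM21 on the mm10 assembly. The whole list held 6798 loops, and those on the X chromosome are described separately. The 606 loops lay in 440 host genes, and the 5 loops that fitted in more than 1 gene record were assigned to the shortest one when anchors were placed along the gene. The contacts came from Micro-C, in which chromatin is cut between nucleosomes with micrococcal nuclease and fragments that were close together are joined and sequenced. The samples were whole cochleae of untreated C57Bl/6 mice at postnatal day 0 (the design text gives day 0 or 1). The 4 samples were merged by the authors before loops were called, so each loop has 1 value and no replicate error. The tissue label could not be checked against marker genes, since the list holds positions and no expression values, and whole cochleae mix sensory, supporting, neuronal, mesenchymal and other cells.

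Chromatin loops are commonly formed by the cohesin complex, a ring that extrudes DNA until it meets the DNA-binding protein CTCF. Pairs of CTCF sites that hold a loop usually point toward each other, with the left site on the forward strand and the right site on the reverse strand, an arrangement called convergent. Loops between a gene start and an enhancer, and loops between a start and the gene's own end, have also been described. A loop inside a long gene may therefore join its start to an internal element, or may join internal elements to each other.

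The 5 convergent loops with the lowest false discovery rate (FDR, the loop caller's corrected p-value) are shown by the CTCF consensus match in each anchor with 10 bases on either side. Capitals mark the 14 bases matched with at most 1 mismatch, and each run is printed 5′ to 3′ on the strand that carries the match, from the mm10 genome. The left match is on the plus strand and the right match on the minus strand in every pair.
Palld left anchor (chr8:61540001-61540034): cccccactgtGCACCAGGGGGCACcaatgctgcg
Palld right anchor (chr8:61874328-61874361): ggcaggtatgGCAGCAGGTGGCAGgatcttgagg
Gm20388 left anchor (chr8:120683748-120683781): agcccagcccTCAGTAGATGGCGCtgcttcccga
Gm20388 right anchor (chr8:120796442-120796475): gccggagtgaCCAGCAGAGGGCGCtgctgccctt
Ptpre left anchor (chr7:135537382-135537415): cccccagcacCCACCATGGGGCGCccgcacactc
Ptpre right anchor (chr7:135631982-135632015): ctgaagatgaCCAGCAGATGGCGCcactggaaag
Cped1 left anchor (chr6:21985074-21985107): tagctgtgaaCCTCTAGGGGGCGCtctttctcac
Cped1 right anchor (chr6:22071603-22071636): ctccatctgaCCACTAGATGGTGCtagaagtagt
Vav2 left anchor (chr2:27285548-27285581): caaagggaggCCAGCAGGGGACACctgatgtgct
Vav2 right anchor (chr2:27428280-27428313): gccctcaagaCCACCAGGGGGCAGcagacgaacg
In 3 of these 5 genes a match sat just upstream of the annotated gene start, at -89 bases in Ptpre, a receptor-type tyrosine phosphatase, -832 bases in Cped1 and -1270 bases in Vav2. The matches at the other end of those 3 loops were intronic, as were both matches in Palld and Gm20388. The Gm20388 record spans 71 other protein-coding genes, so intronic there means only outside the exons of that record.

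The start regions of the 2 genes with the lowest-FDR loops anchored at their start are shown because the 5′ anchor contains them. They are Slc44a5, a member of the choline transporter-like family, and Schip1, which encodes schwannomin-interacting protein. Each run is the 250 bases before the RefSeq transcript start inside the anchor (GRCm38.p6, plus strand), with CG dinucleotides in capitals.
Slc44a5 (chr3:153973186-153973435): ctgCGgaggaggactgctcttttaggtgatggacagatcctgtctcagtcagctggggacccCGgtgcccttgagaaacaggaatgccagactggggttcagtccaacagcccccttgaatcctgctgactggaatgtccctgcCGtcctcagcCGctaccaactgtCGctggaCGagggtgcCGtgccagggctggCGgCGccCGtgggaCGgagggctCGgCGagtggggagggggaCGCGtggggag
Schip1 (chr3:68064552-68064801): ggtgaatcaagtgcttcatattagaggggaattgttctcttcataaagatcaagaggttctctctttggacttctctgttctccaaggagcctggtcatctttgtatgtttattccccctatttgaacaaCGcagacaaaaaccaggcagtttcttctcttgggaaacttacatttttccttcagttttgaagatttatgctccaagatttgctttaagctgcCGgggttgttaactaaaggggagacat
The Slc44a5 region held 15 CG dinucleotides and was 65.2% G or C, while the Schip1 region held 2 and was 40.4% G or C. The median was 6.00 CG dinucleotides over 32851 RefSeq start regions of this length, 13 over the 533 regions of host genes and 16 over the 179 regions of host genes with a loop anchored at the gene start. These medians take every RefSeq start of a gene, including starts outside the anchor, and are not matched for gene length.

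Loops inside one gene body made up 9.06% of the loops on chromosomes 1 to 19 (95% Wilson interval 8.40 to 9.77, for counting error over loops only; neighbouring loops are not independent). Another 1863 loops (27.9%) had both anchors in protein-coding genes with no gene in common, 2992 (44.7%) had 1 anchor in a gene and 1228 (18.4%) had none. Among all pairs of bins at the same distances on these chromosomes, 7.80% lay inside one gene, so that the loops exceeded the bin pairs by a ratio of 1.16 (1.08 to 1.25). The ratio was 1.05 (0.952 to 1.16) for loops of 60 to 190 kb, 1.29 (1.13 to 1.47) for 200 to 390 kb and 1.45 (1.17 to 1.80) for 400 kb or more. The ratio depended on loops that reach the edges of their gene: when both anchor bins had to lie wholly within the gene record, 396 loops remained, 5.92% of the list against 7.07% of bin pairs, a ratio of 0.837 (0.761 to 0.921). It also fell to 1.07 (0.974 to 1.16) over loops with FDR below 0.05.

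Loops inside a gene were shorter than the others, with a median distance between anchors of 180 kb (quartiles 120 and 290) against 290 kb (160 and 530). Their median FDR was 0.0154, and 441 of 606 (72.8%) had an FDR below 0.05, compared with 79.0% of all loops on these chromosomes. The share minus that in the other 6083 loops was -6.81 percentage points (Newcombe 95% interval -10.6 to -3.26). Within distance classes the difference was -9.80 points (-15.1 to -4.89) at 60 to 190 kb, and its interval included 0 at 200 to 390 kb (-11.5 to 1.41) and at 400 kb or more (-14.5 to 4.46).

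The host genes were long. Their median length was 284 kb (quartiles 179 and 488), against 98.4 kb for genes that could have held a loop and held none, and 17.6 kb for all 20807 protein-coding genes. Since the closest anchors in the list were 60 kb apart, 4417 genes could hold a loop, and 440 of them (9.96%) did. Of the 2045 genes under 100 kb, 14 held a loop (0.685%). The share was 8.53% (121 of 1419) in the class from 100 to 200 kb and 24.4% (150 of 614) in the class from 200 to 400 kb. It reached 41.2% (101 of 245) from 400 to 800 kb and 57.4% (54 of 94) in genes of 800 kb or more. The share in the longest class was 44.7% over loops with FDR below 0.05 and 27.7% over loops with FDR below 0.01. The 95% Wilson intervals of neighbouring classes did not overlap except for the 2 longest, 35.2 to 47.5% and 47.4 to 67.0%. Longer genes contain more pairs of bins at these distances, so a rise with length is built into the rule. No share expected from bin pairs was computed for the classes, and the rise is not a result by itself. In the same order of classes, loops numbered 0.0932, 0.636, 1.04, 1.21 and 1.26 per megabase of gene, so the count per length was close to level over the 3 longest classes.

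**Figure D1:**
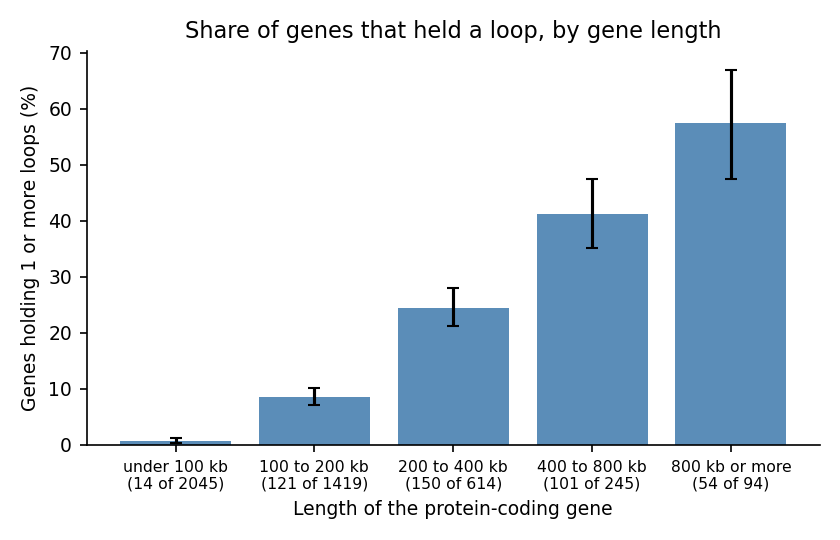
Percent of protein-coding genes on chromosomes 1 to 19 that held 1 or more loops, for 5 classes of gene length, with the number of genes under each bar and 95% Wilson intervals as error bars. The share went from 0.685% for genes under 100 kb to 57.4% for genes of 800 kb or more. Longer genes contain more pairs of bins that could form a loop.

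The shortest hosts were Map2k1 (67.9 kb), which encodes the kinase MEK1, Plch2 (73.7 kb), a phospholipase C, and Tead4 (76.5 kb), a DNA-binding partner of the Hippo pathway effectors. Each held a single loop of 70 kb. The longest records were Gm20388 (4435 kb), Fgfr2 (2961 kb) and Ptprd (2271 kb), a receptor-type tyrosine phosphatase of synapses.

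The first 2 of these records span many other genes. Gm20388 is annotated as 1 protein-coding gene with 71 other protein-coding genes lying within it, and the Fgfr2 record spans 29 others, whereas RefSeq gives Fgfr2, a fibroblast growth factor receptor, a length of 104 kb. A further record of this kind, Gm37240 (1391 kb), contains 6 other genes. Of the 606 loops, 49 lay inside no RefSeq protein-coding gene, and 29 of the 49 belonged to Gm20388 or Fgfr2. The remaining 557 loops lay inside a RefSeq gene as well. With RefSeq gene bodies in place of GENCODE records, 592 loops and 442 host genes were found, and the ratio to bin pairs was 1.17. Shares of gene starts, gene ends, transcript starts and exons in the anchors are therefore also given for the 557 loops below.

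Most host genes held 1 loop (344 genes), 70 held 2 loops and 26 held 3 or more. Gm20388 held 21 loops and Fgfr2 held 11. Among the rest, Dlg2, which encodes the postsynaptic scaffold PSD-93, held the most with 8. It was followed with 6 loops each by Pde4d, a cAMP phosphodiesterase, Prkg1, the cGMP-dependent protein kinase, and Tenm2, a teneurin adhesion receptor of synapses. There were 5 loops each in Lsamp, a cell adhesion molecule of neurons, Etl4, and Nav2, a neuron navigator protein. Magi2, a synaptic scaffold, Trpm3, a cation channel, Rabgap1l, a Rab GTPase-activating protein, and Inpp4b, a phosphoinositide phosphatase, held 4 each. Genes with 3 loops were Palld, Kcnip4, Gm37240, Ank3, Syn3, Tenm3, Frmd4a, Cacna1c, Tenm4, Cdh23, Ptprd, Mast4 and Ssh2. Without Gm20388, Fgfr2 and Gm37240, these 23 genes had a median length of 740 kb, from 244 kb for Ssh2 to 2271 kb for Ptprd.

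The loops of Dlg2 fell into groups along the gene. Loops of 920, 710 and 810 kb had 5′ anchors close to each other, at 1.44, 1.94 and 2.96% of the gene length, and reached 48.1, 37.9 and 44.0% of it, with FDR of 0.000413, 0.000887 and 0.0834. Loops of 560, 630 and 140 kb started at 50.1, 50.1 and 49.6% and ended at 78.5, 82.0 and 56.7%. The end of the first group and the start of the second were therefore neighbours near the middle of the gene. A loop of 200 kb followed at 83.1 to 93.2%, and a loop of 250 kb lay inside the first group. All but 1 of the 8 had an FDR below 0.05.

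In Pde4d every loop lay in the 3′ part of the gene. A single anchor at 52.2% of the gene length, in intron 3 of the longest coding transcript, was shared by loops of 310, 370 and 520 kb, with FDR of 0.00519, 0.00519 and 0.00316. Loops of 200, 120 and 120 kb covered 59.5 to 72.8%, 77.5 to 85.5% and 88.8 to 96.8% of the gene. The 5′ part of the record, where the longest transcript begins, held no anchor of these loops.

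In Prkg1 and Tenm2 the longest loops began near the gene start. In Prkg1, 5 of the 6 loops had a 5′ anchor in the first intron, at 3.33 to 8.33% of the gene length, and these loops spanned 280 to 1030 kb. The FDR of the 6 loops ran from 0.0211 to 0.0918. In Tenm2, loops of 1140 and 960 kb shared a 5′ anchor at 4.15% of the gene, in intron 1, and both were convergent. Their 3′ anchors lay at 96.9 and 82.2% of the gene, and the other 4 loops, of 270 to 480 kb, lay between 46.4 and 96.1%.

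**Figure D2:**
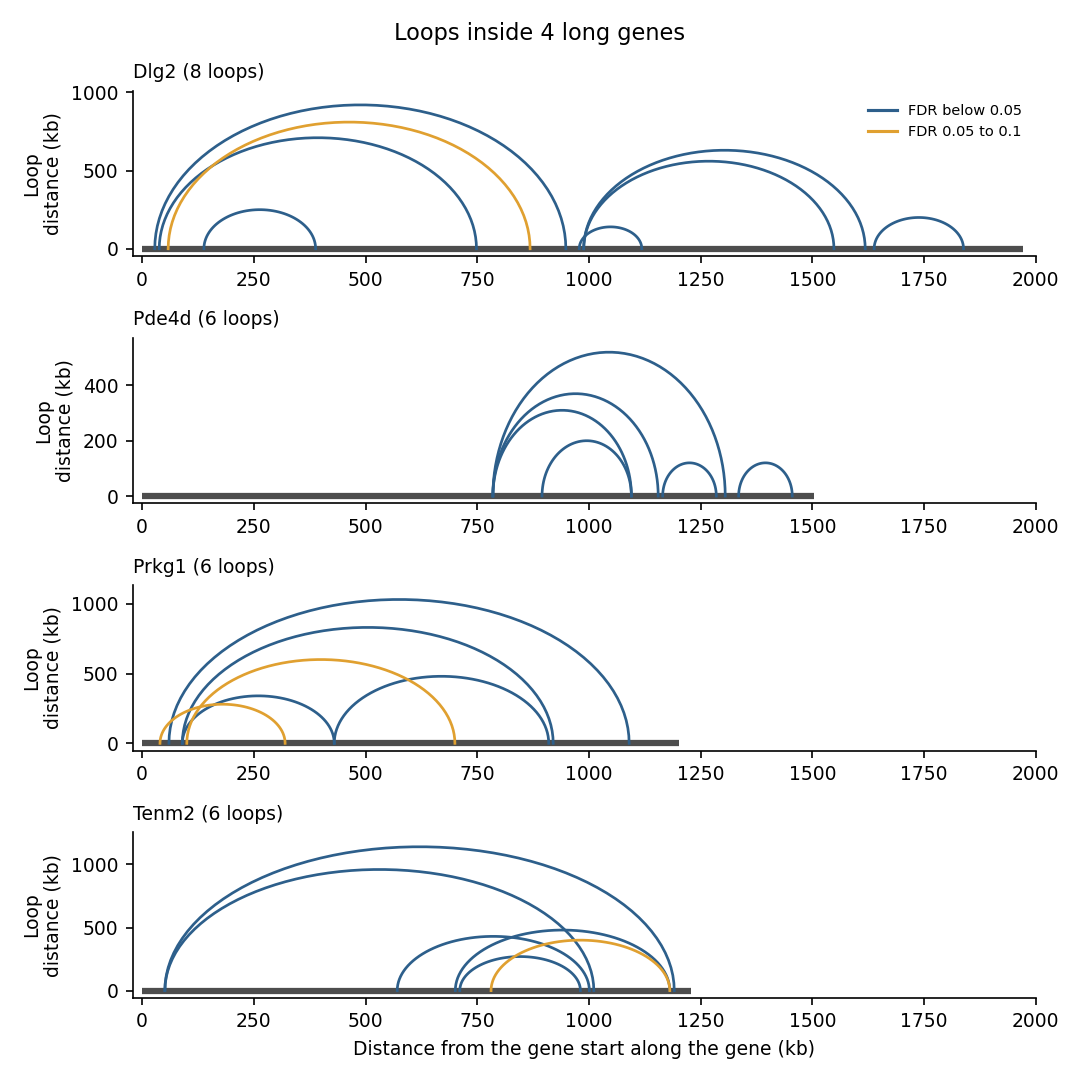
Loops inside Dlg2, Pde4d, Prkg1 and Tenm2. The x axis is the distance from the gene start in kb along the gene (dark bar), each arc joins the centres of the anchors of 1 loop and its height is the distance between them in kb, with loops of FDR below 0.05 in blue and the rest in orange. Dlg2 has groups of loops on either side of the middle of the gene, and all 6 loops of Pde4d lie in its 3′ part.

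Loops of the same gene were compared pair by pair in the 96 genes with 2 or more. Leaving out Gm20388, Fgfr2 and Gm37240, 56 pairs shared an anchor bin, 68 were nested, 33 crossed and 76 lay side by side. In Syn3, which encodes a synapsin, each pair of its 3 loops shared an anchor: loops of 150 kb (9.89 to 43.7% of the gene, FDR 0.00486) and 240 kb (43.7 to 97.8%, FDR 0.000884) met in intron 6, and a loop of 390 kb (FDR 0.00199) joined their outer anchors. Palld had the same plan, with loops of 180 and 140 kb beneath 1 of 330 kb, though the inner loops did not share the outer 5′ bin. Of the 1157 anchor bins of loops inside genes, 181 (15.6%) also served another loop, and 136 (11.8%) served a loop that was not inside a gene. Among the 10465 bins that anchored only other loops, 13.3% were used more than once. In 313 of the 440 host genes at least 1 further loop joined the gene to a place outside it. The share in other genes of like length is not given, and longer genes cover more bins, so this count is no trait of hosts.

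The 10 loops with the lowest FDR ran from 1.21e-06 to 1.31e-05 and from 90 to 480 kb. Palld, which encodes the actin-associated scaffold palladin, had the lowest, in a 330 kb loop from exon 2 to exon 11 that ranked 19 of all 6689 loops. It was followed by Arhgap26 with 160 kb between intron 2 and exon 5 of its longest coding transcript (FDR 3.43e-06). Slc44a5 came next with 250 kb (FDR 4.19e-06), then 2 loops in the Gm20388 record (both FDR 5.3e-06) and Schip1 with 480 kb (FDR 8.27e-06). The 240 kb loop of Pde4b, a cAMP phosphodiesterase, had both anchors in intron 3 (FDR 9.84e-06). Creb3l2, a membrane-bound transcription factor, had a loop of 90 kb (FDR 1.29e-05). Spon1, which encodes the matrix protein spondin 1, had a loop of 250 kb (FDR 1.29e-05), and D430041D05Rik had a loop of 270 kb (FDR 1.31e-05). In 5 of the 10 loops, those of Slc44a5, Schip1, Creb3l2, Spon1 and D430041D05Rik, the 5′ anchor contained the gene start.

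The 5 longest loops were 1580 kb in Macrod2, 1180 kb in Magi2, 1140 kb in Tenm2, 1030 kb in Prkg1 and 1010 kb in Gpc6, a glypican of the cell surface. Their FDR values were 0.0658, 0.00741, 0.0430, 0.0296 and 0.0151. Each covered most of its gene, from 79.1% of the length in Macrod2 to 96.1% in Gpc6. None had the annotated gene start in an anchor, although the Gpc6 anchor lay 4.69 kb from it.

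Anchors were found at gene starts more often than their place along the gene would give. The gene start lay in the 5′ anchor of 165 of 606 loops, or 27.2% (23.8 to 30.9). If each loop is slid to every possible place within its own gene with its distance kept, the mean share is 14.3%, so the observed share was 1.90 times the mean over placements (1.67 to 2.16). The gene end lay in the 3′ anchor of 67 loops, or 11.1% (8.80 to 13.8), against the same mean of 14.3%, a ratio of 0.773 (0.616 to 0.965). The interval of this ratio included 1 over loops with FDR below 0.05 (0.649 to 1.06), over those with FDR below 0.01 (0.699 to 1.20) and when neighbouring calls were merged (0.644 to 1.03). For the 557 loops inside a RefSeq gene the shares were 28.7% for the start and 10.6% for the end, both against 14.4%.

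In 21 loops the start and the end of the gene lay in the 2 anchors, and these loops have only 1 possible place in their gene. Without them, 144 of 585 loops (24.6%) had the gene start in an anchor against 11.2% over placements, and 46 (7.86%) had the gene end. None of these 585 loops can hold both, so a larger share at the start leaves fewer loops for the end. The lower share at the end is therefore not a separate result. Both shares were given against placements in genes of different lengths as well: the start was in the anchor of 44.7% of loops in hosts under 400 kb (24.3% over placements) and of 8.53% in hosts of 400 kb or more (3.62%). By loop distance, the ratio for the start was 1.87 at 60 to 190 kb, 2.08 at 200 to 390 kb and 1.58 at 400 kb or more, where only 7 of 80 loops had it and the interval of the share, 4.30 to 17%, included the 5.53% over placements.

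By gene length, 17.3% of loops in hosts under 400 kb had the gene end in an anchor against 24.3% over placements. In longer hosts it was 4.44% (2.61 to 7.44) against 3.62%, which lay within the interval. Loops with the start in an anchor exceeded placements by 64.0 in hosts under 400 kb and by 14.4 in longer hosts. They leave fewer loops for the end, so the shares at the end are not separate results here either. No difference between the length classes was computed. The 21 loops that joined the start of a gene to its end were in genes of 67.9 to 333 kb. The lowest FDR among them were those of D430041D05Rik (1.31e-05), Nxn, a thioredoxin-like protein (0.000101), and Itgb5, the integrin beta 5 subunit (0.000106). The other genes were Meis1, Tnfaip8, Gab1, Ablim3, Map2k1, Ptprf, Fam171a1, Ncoa7, Msra, E130308A19Rik, Dnmbp, Pitpnc1, Anks1, Gfod1, Znrf1, Plch2, Ank and Parp8.

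**Figure D3:**
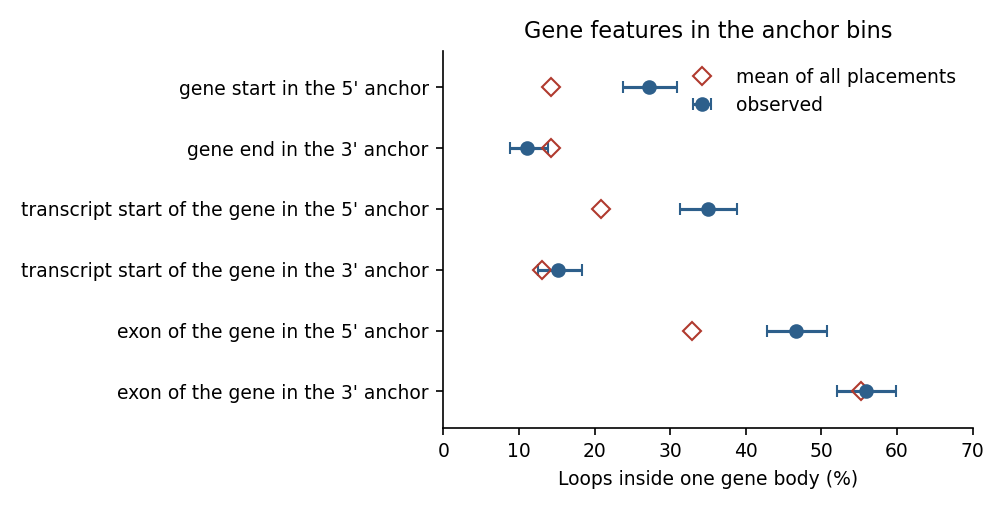
Percent of the 606 loops inside one gene body whose anchor bin held the feature named on the y axis (filled points, with 95% Wilson intervals), beside the mean over all placements of each loop in its own gene (open diamonds). The gene start was in the 5′ anchor of 27.2% of loops against 14.3% over placements, and the gene end in the 3′ anchor of 11.1%.

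Over the whole gene, the 5′ anchor lay in the first of 5 equal parts in 385 loops, or 63.5% (59.6 to 67.3), against 56.1% over placements. It lay in the next part in 16.5% of loops against 24.6%. The 3′ anchor lay in the last part in 308 loops, or 50.8% (46.9 to 54.8), against 55.9%, and in the next to first part in 8.58% (6.60 to 11.1) against 5.47%. The median loop spanned 57.5% of its gene (quartiles 34.3 and 78.2), with the 5′ anchor 23.0 kb from the gene start and the 3′ anchor 63.2 kb from the gene end.

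**Figure D4:**
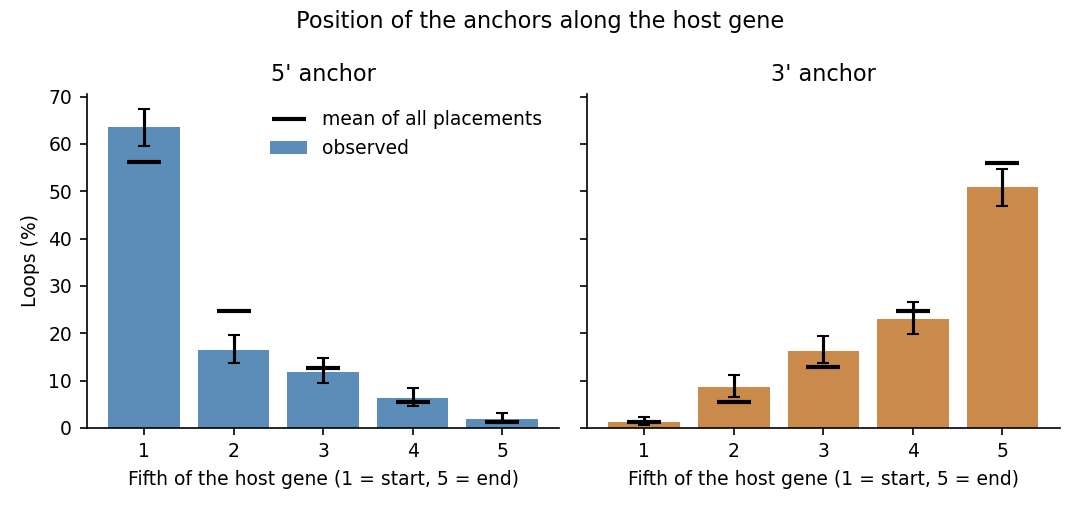
Percent of the 606 loops whose 5′ anchor (left) or 3′ anchor (right) was centred in each of 5 equal parts of the host gene, counted from the start, with 95% Wilson intervals, and the mean over all placements of each loop (black dashes). The 5′ anchor was in the first part of the gene in 63.5% of loops against 56.1% over placements.

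Many of these genes have alternative starts. The start of any annotated transcript of the host gene lay in the 5′ anchor of 212 loops (35.0%, against 20.9% over placements) and in the 3′ anchor of 92 (15.2%, 12.5 to 18.3, against 13.1%). Transcript starts lay in both anchors of 44 loops, or 7.26% (5.45 to 9.61), against 3.68% over placements. These loops are also counted in the shares for each anchor, so this share is not separate from them. Pairing of starts beyond those shares was not tested. For the 557 loops inside a RefSeq gene the 3 shares were 37.0, 16.3 and 7.90%, against 21.4, 13.8 and 3.86%. Of the 44 loops, 15 had the start of a protein-coding transcript in both anchors. The lowest FDR among the 44 were those of Slc44a5, Celsr1, a cadherin of planar cell polarity (130 kb, FDR 3.23e-05), Samd4 (190 kb, FDR 3.55e-05) and Nfix, a nuclear factor I transcription factor (90 kb, FDR 3.69e-05). Among the others were loops in Arhgap22, Itgb5, Greb1, Chd9, Mecom, Dst, Prdm16, Cdh23, Utrn, Cux1 and Ank2.

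Exons of the host gene were present in the 5′ anchor of 46.7% of loops (42.8 to 50.7) against 32.9% over placements, and in the 3′ anchor of 55.9% against 55.2%. A total of 174 loops (28.7%) had no exon of the host in either anchor, against 34.5% over placements. Among the 557 loops the 3 shares were 49.6, 58.7 and 25%, against 34.2, 57.9 and 31.4%. A bin that holds a transcript start also holds an exon, so the exon shares are not separate from those of the starts. In the 5′ anchors of the 606 loops the excess over placements was 83.4 loops for exons and 85.4 for transcript starts. Both anchors lay in the same intron of the longest coding transcript in 61 loops, and 29 of these were among the 557 loops inside a RefSeq gene. Kcnip4, which encodes a subunit that modulates potassium channels, was one of them: its 250 kb loop (FDR 1.62e-05) lay within intron 1. The anchors also held starts of other genes, a noncoding gene in 99 loops (16.3%) and another protein-coding gene in 41 (6.77%). No mean over placements was computed for these counts or for loops within 1 intron.

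Loops with the gene start in an anchor were shorter than those without (median 150 and 190 kb) and lay in shorter genes (median 209 and 486 kb). Their median FDR was 0.00619 against 0.0205, and an FDR below 0.05 was reached by 78.2% and 70.7%, a difference of 7.43 points whose interval included 0 (-0.572 to 14.6).

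The CTCF consensus, matched on either strand with at most 1 mismatch over 14 bases, was present in 43.6% of the 1157 anchor bins of these loops (40.8 to 46.5). It was present in 21.6% of all bins on chromosomes 1 to 19, in 18.4% of the other bins of the host genes, and in 49.1% of the bins that anchored only other loops. The share in anchors of loops inside genes minus that in anchors of other loops was -5.43 points (-8.42 to -2.40). A match is a likeness in sequence, and binding of CTCF was not measured in the data used here. Base composition differed too: median GC content was 44.5% in anchors of loops inside genes, 44.1% in other anchors and 42.3% in the other bins of the host genes, and its part in these shares was not tested.

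Both anchors had a match with a clear orientation in 116 loops, of which 79 were convergent (68.1%, 59.2 to 75.9), 19 were both forward, 17 both reverse and 1 divergent. Among other loops, 938 of 1367 were convergent (68.6%, 66.1 to 71.0). The difference was -0.514 points with an interval of -9.78 to 7.66, so that differences of up to several points in either direction remain possible. By distance the differences were 0.0882 points (-12.3 to 10.6) at 60 to 190 kb, -0.907 (-17.6 to 13.7) at 200 to 390 kb and 2.89 (-25.6 to 19.5) at 400 kb or more. The sign of the overall difference changed with the settings, from -17.4 points (-45.4 to 3.17, with 12 loops of clear orientation) with no mismatch to 4.21 points (-7.47 to 12.9) over loops with FDR below 0.01, and its interval included 0 under each setting tried. The convergent share was similar for host genes on the plus strand (42 of 61) and on the minus strand (37 of 55).

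**Figure D5:**
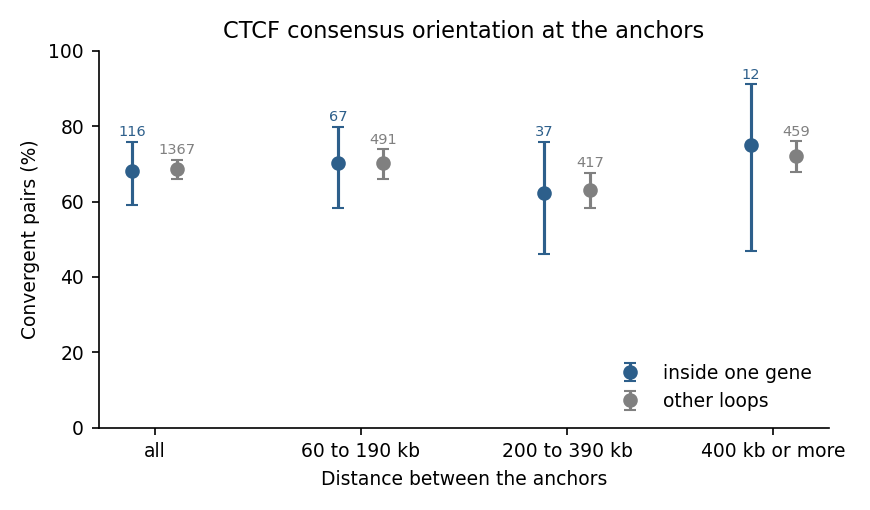
Percent of loops with a convergent pair of CTCF consensus matches, among loops with a clear orientation at both anchors (their number above each point), for loops inside one gene and other loops, over all distances and in 3 distance classes, with 95% Wilson intervals. The values are 68.1% and 68.6% over all distances, and the intervals overlap in every class.

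At gene starts the consensus was found more often when a loop inside the gene was anchored there. The bin of the gene start held a match in 86 of the 159 genes with such a loop (54.1%, 46.3 to 61.6) and in 1194 of the 4258 other genes able to hold a loop (28.0%), a difference of 26.0 points (18.2 to 33.7). The closest match lay within 1 kb of the start in 41 of the 159 genes (25.8%) against 380 of 4258 (8.92%), a difference of 16.9 points (10.6 to 24.2), and it was on the upstream side in 32 of the 41, as in Ptpre and Cped1, and in 220 of the 380. The match was on the strand of the gene, pointing into it, in 61 of 78 start bins with a clear orientation (78.2%, 67.8 to 85.9), against 593 of 1105 (53.7%) at the other genes. Pointing into the gene from a 5′ anchor is the same as pointing into the loop, as convergent matches do. This direction was not particular to gene starts. Over the 5′ anchors of all loops inside genes, 190 of 239 with a clear orientation were on the strand of the gene (79.5%, 73.9 to 84.1). Over the 3′ anchors it was 38 of 248 (15.3%).

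The start bins of the 159 genes had a median GC content of 47.2%, against 45.0%. Within classes of GC content the share with a match was 45.5% (5 of 11 genes) against 19.4% under 42% GC, 44.4% against 25.3% at 42 to 46% GC and 58.3% against 31.3% at 46 to 50% GC. It was 61.3% against 45.1% at 50% GC or more, where the interval of the difference included 0 (-1.82 to 31.9).

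The same was seen at starts from which a loop ran in the direction of the gene and ended beyond it: 96 of 183 start bins (52.5%) held a match, which differed by 1.63 points (-8.89 to 12.1) from the share for loops inside genes. Of those with a clear orientation, 65 of 89 (73.0%) pointed into the gene. Where the loop ran away from the gene, 62 of 166 start bins (37.3%) held a match and 15 of 55 (27.3%, 17.3 to 40.2) pointed into the gene. At starts in no anchor, 26.5% of 3903 bins held a match.

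Gene groups were described with 9 lists of genes, each beside the number of holders that its genes would give if every length class held loops at the rate of all genes. Cell adhesion genes were frequent among the hosts, and they are long. Of 46 synaptic and neuronal adhesion genes able to hold a loop (median length 565 kb), 17 did, against 16.1 from their lengths. The lowest FDR were in Tenm3, a teneurin (0.00126, 280 kb), and Cadm1, an immunoglobulin-type adhesion molecule (0.00170, 160 kb). Of 31 cadherins and protocadherins 7 held a loop, against 6.57, led by Celsr1 and Pcdh9 (FDR 0.00140, 580 kb).

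Several lists had more holders than the number from length. Of 55 second messenger enzymes able to hold a loop, 16 did (29.1%, 18.8 to 42.1), against 10.5. Pde4b and Pde1c, a calmodulin-dependent phosphodiesterase (400 kb, FDR 5.08e-05), led the list. Of 37 axon guidance ligands and receptors 11 did, against 8.11, with Plxna4, a semaphorin receptor (260 kb, FDR 3.02e-05), and Robo1, the receptor of Slit proteins (310 kb, FDR 3.77e-05), lowest. Of 84 developmental transcription regulators 22 did, against 17.3, led by Nfix and Meis1 (140 kb, FDR 0.000970). Over loops with FDR below 0.05 the transcription regulators among the hosts numbered 14, while all host genes numbered 338. In each of the 9 lists the share given by the lengths lay within the Wilson interval of the observed share.

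Other lists were below the number from length. Of 82 ion channel genes 11 held a loop, against 14.2, led by Kcnip4 and Kcnip1 (180 kb, FDR 1.94e-05). Of 29 glutamate and GABA receptors 5 did, against 7.76, with Grik4, a kainate receptor subunit (140 kb, FDR 0.00484), and Grin2b, an NMDA receptor subunit (230 kb, FDR 0.0145), lowest. Of 71 genes of collagens and extracellular matrix 8 did, against 11.5, led by Col23a1 (250 kb, FDR 0.000821) and Spock1 (180 kb, FDR 0.00686).

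Of 61 genes of hereditary hearing loss able to hold a loop, 8 did (13.1%, 6.8 to 23.8), against 6.06 from their lengths and 9.96% of all genes able to hold one. Cdh23, the cadherin of the hair cell tip link, had loops of 270 kb (FDR 0.0103), 160 kb (0.0167) and 100 kb (0.0359). The 160 kb loop joined the gene start to exons 8 and 9, the 270 kb loop began in the neighbouring bin and ended at 71.5% of the gene, and the 100 kb loop joined exons 27 to 29 to exons 62 to 71. Pcdh15, the other tip link protein, had loops of 250 kb (FDR 0.0334) and 130 kb (0.0842), 1 nested in the other, between 72.0 and 88.1% of the gene.

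Otogl, which encodes otogelin-like of the acellular membranes of the inner ear, had loops of 60 kb (FDR 0.00783) and 110 kb (0.0522) from 1 anchor at its start. Single loops were anchored at the start of Gab1, a signalling adaptor (120 kb, FDR 0.00182), Ror1, a receptor tyrosine kinase-like protein (310 kb, FDR 0.00302), and Chd7, a chromatin remodeller (120 kb, FDR 0.0233). The start was also an anchor in Adgrv1, the adhesion receptor of the hair bundle ankle links (110 kb, FDR 0.0633), and Gas2, a linker of actin and microtubules (100 kb, FDR 0.0911). The gene start lay in an anchor of 7 of these 8 genes, compared with 159 of 440 host genes (36.1%). This comparison was not matched for gene length, and most of the 8 genes were under 400 kb. In all hosts under 400 kb, 44.7% of loops had the start in an anchor, against 24.3% over placements. The Gab1 loop also held the gene end and had only 1 possible place. The other gene lists had lower shares, which are not given here. The 8 genes are few and no test was made of this count, so no conclusion is drawn from it.

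By chromosome, loops inside genes were between 5.97% of the loops on chromosome 9 and 15.3% on chromosome 19. Chromosome 8, with 14.9%, held the Gm20388 record, and chromosome 7, with 14%, held the Fgfr2 record.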

How the data were processed

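Micro-C reads from 4 samples of whole mouse cochlea were aligned by the authors to mm10 with BWA-MEM, filtered to informative pairs, deduplicated and merged, and loops were called on the merged 10 kb contact matrix with Mustache at a threshold of 0.1. The deposited table gives for each loop the positions of both bins, the FDR (a corrected p-value, or q-value) and the detection scale, a score of the width of the filter at which the loop was found. Pooling means that the depth and the agreement of the samples are unknown from the file used. The study's text is not uniform on whether all 4 samples were separate biological replicates. The other samples of the series were not analysed here. Precision is that of counting loops, in 95% Wilson intervals and Newcombe intervals for differences of shares. These intervals cover counting error only.

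Gene bodies, transcripts and exons were those of GENCODE vM21. For the share of bin pairs inside one gene, all pairs of bins with at most 10% unknown bases were enumerated. Placements were all shifts of a loop within the bins of its host gene. A CTCF consensus of 14 bases, written from general knowledge, was searched on both strands of the genome with at most 1 mismatch. Each bin took the orientation of its best match, unless the best matches of the 2 strands tied, in which case the bin had none. No sequence is shown for chromosome 18. RefSeq lengths and start regions were from GRCm38.p6, the same assembly. The list was read with pandas 2.3.3 in Python 3.11.15. Tests on simulated data covered the loop finder, the share of bin pairs, the orientation call and the consensus search.

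The members and gene lists were chosen with earlier results of these data known, and the result of a further gene list is not reported here. Named genes were hosts with 3 or more loops, the 10 lowest-FDR and 5 longest loops, the 3 shortest and 3 longest hosts, loops from gene start to gene end or with transcript starts in both anchors, hosts on the hearing loss list and the 2 lowest-FDR hosts of each other list. Alternatives were stricter FDR, the smallest detection scale, other gene bodies, merged neighbouring calls, the X chromosome, other start definitions and other consensus rules. RefSeq gene bodies and the restriction to loops with more than 1 possible place were chosen after seeing the data.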

Additional observations from a re-analysis of the deposited data

Results flagged for a closer look

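The loops of the X chromosome are listed here because no comparison above used them. Of its 109 loops, 6 lay inside one protein-coding gene (5.50%, 95% Wilson interval 2.55 to 11.5). The share on chromosomes 1 to 19, 9.06%, lay within that interval. The 6 loops were in Hs6st2 (170 kb, FDR 0.0588), Dach2 (180 kb, 0.0551), Il1rapl2 (510 kb, 0.000113), Sh3kbp1 (330 kb, 0.00512, and 120 kb, 0.0661) and Nhs (170 kb, 0.0937).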

How the results depend on the processing

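No paired analysis was possible because the loops were called on merged samples and the list has no values per replicate, and for the same reason no replicate could be left out. With FDR below 0.05 the share of loops inside genes was 8.35%, the ratio to bin pairs 1.07, the share of able genes 7.65% (44.7% at 800 kb or more), the convergent difference 2.62 points, and glutamate and GABA receptors gave 3 and transcription regulators 14 holders. With FDR below 0.01 there were 272 loops, a ratio of 1.05 and 227 genes (5.14%, and 27.7% at 800 kb or more). The start was in 33.8% and the end in 16.2% of anchors, both against 17.6% over placements (ratios 1.93 and 0.921). The convergent share was then 78.8%, with a difference of 4.21 points. The smallest detection scale gave 7.58% of able genes. Anchor bins wholly inside genes gave 396 loops (5.92%), a ratio of 0.837, 268 genes (8.24%) and a median of 200 kb, and no gene start, since such bins cannot hold one. The longest coding transcript gave 8.27% of loops. Merged calls gave 9.10% of able genes and a convergent difference of 1.36 points. The start of any transcript gave 35.0% against 20.9% over placements. A neighbouring bin gave 43.1% (gene end 21.3%), both against 25.1%. Loops with more than 1 place gave a ratio of 2.19 (gene end 7.86% against 11.2%). Up to 2 mismatches gave 52.3% convergent and a difference of -5.77 points (-12.1 to 0.466), no mismatch a difference of -17.4 (-45.4 to 3.17), and the strand with more matches 4.01. No interval of a convergent difference excluded 0. The cause of these changes was not tested, apart from fewer loops or other bins by construction. The ratio for the gene start stayed above 1 under every setting that gave one.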
